A study of Mus musculus with 4 samples.

Results

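The replication-dependent histone genes were followed in endothelial cells from adult mouse hearts. A member was any gene that RefSeq names Hist1h, Hist2h, Hist3h or Hist4h, as its symbol or as an older synonym. The RefSeq table holds 70 such genes, 3 of them pseudogenes. Of these, 56 lie on chromosome 13, 10 on chromosome 3, 3 on chromosome 11 and 1 on chromosome 6. The array carried 38 member probes for 33 genes, out of 41174 non-control probes, and 31 of the genes had a probe bright enough to be tested. No probe on the array was matched to the remaining members. By class, 5 encode linker histone H1 and 11, 7, 3 and 5 encode the core histones H2A, H2B, H3 and H4.

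Samples labelled G2-EC-KO, with Gata2 knock out as their genotype, numbered 2. Control samples, of wild type, also numbered 2. Each total RNA was amplified, tagged with the dye Cy3 and put on 1 Agilent 1-colour array. The promoter that drove the deletion, the deleted exons and the age beyond adult are not given in the sources used here, and the labels do not say that the 2 samples of a group came from separate animals. What a p-value measures here is thus the spread among 4 arrays, which may be technical, although of the control arrays replicate 2 had 7 Y-linked probes well above background and replicate 1 had 1. Gata2, a zinc finger transcription factor of endothelial and blood cells, read 2.16 and 2.46 in G2-EC-KO, against 1.85 and 2.17 in control, given, like every signal here, as log2 of the ratio to the array's own 75th percentile. Its log2 change was 0.30 (SE 0.18; limma, adjusted p = 0.584), and a second probe gave 0.17 (SE 0.14). Where the probes lie relative to the deleted part is not known, so these values do not check the labels.

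Replication-dependent histone genes supply the bulk of new histone protein when DNA is copied. Their genes have no introns, sit in clusters, and are switched on in S phase by NPAT, a coactivator that cyclin E and CDK2 phosphorylate. Most of their mRNAs end in a conserved stem-loop bound by SLBP in place of a poly(A) tail, although some members also make polyadenylated transcripts. H2A, H2B, H3 and H4 proteins build the nucleosome core, and H1 proteins bind the linker DNA between cores. Adult heart endothelium is mostly outside the cell cycle. Linear amplification kits of the kind named in the labels start cDNA at poly(A) tails, and how far this set the signal of any histone probe was not tested. Mouse H4 genes encode the same protein, and RefSeq lists other members as synonyms of all 5 H4 and all 3 H3 genes with a probe and of 2 of the 8 H2B genes with a probe. It lists none for the 11 H2A and 6 H1 genes with a probe. Whether a probe also reads near-identical copies was not tested, so the probes of a class may not be independent.

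No member passed an adjusted p of 0.05 (limma, 0 of 31 genes, 13 of them at an unadjusted p under 0.05), and 0.00372% of all 26893 probes and 0% of the 13628 genes tested did. The lowest adjusted p of a member was 0.387. At an unadjusted p under 0.05, 13 of 31 member genes were higher in G2-EC-KO, against a background of 6.19% of all genes, and 0 were lower, against 2%. Of these 13, 8 belong to H2A, 2 to H1, 2 to H4 and 1 to H2B. The H2B gene, H2bc6, passed the filter on dim probes only through the G2-EC-KO arrays, so the filter itself favoured a higher value there. H2bc6 is included in each count over the 31 genes. With probes well above background on all 4 arrays the count was 12 of 30, where 2571 of 25488 probes had such a p in either direction. The G2-EC-KO arrays lay above both control arrays for 19 member genes, against 30.8% of all genes, and below both for 0, against 16.4%. A log2 change of at least 1 was measured for 6 members, against 1.47% of all genes, and of -1 or less for 0, against 0.338%. The median log2 change over the 31 genes was 0.46, where that over all genes tested was 0.043. It was 0.28 without G2-EC-KO replicate 2. On the higher side stood 28 members, against 58.6% of all genes, and on the lower side 3, against 41.4%, with 23 higher when control replicate 1 was left out.

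**Figure D1:**
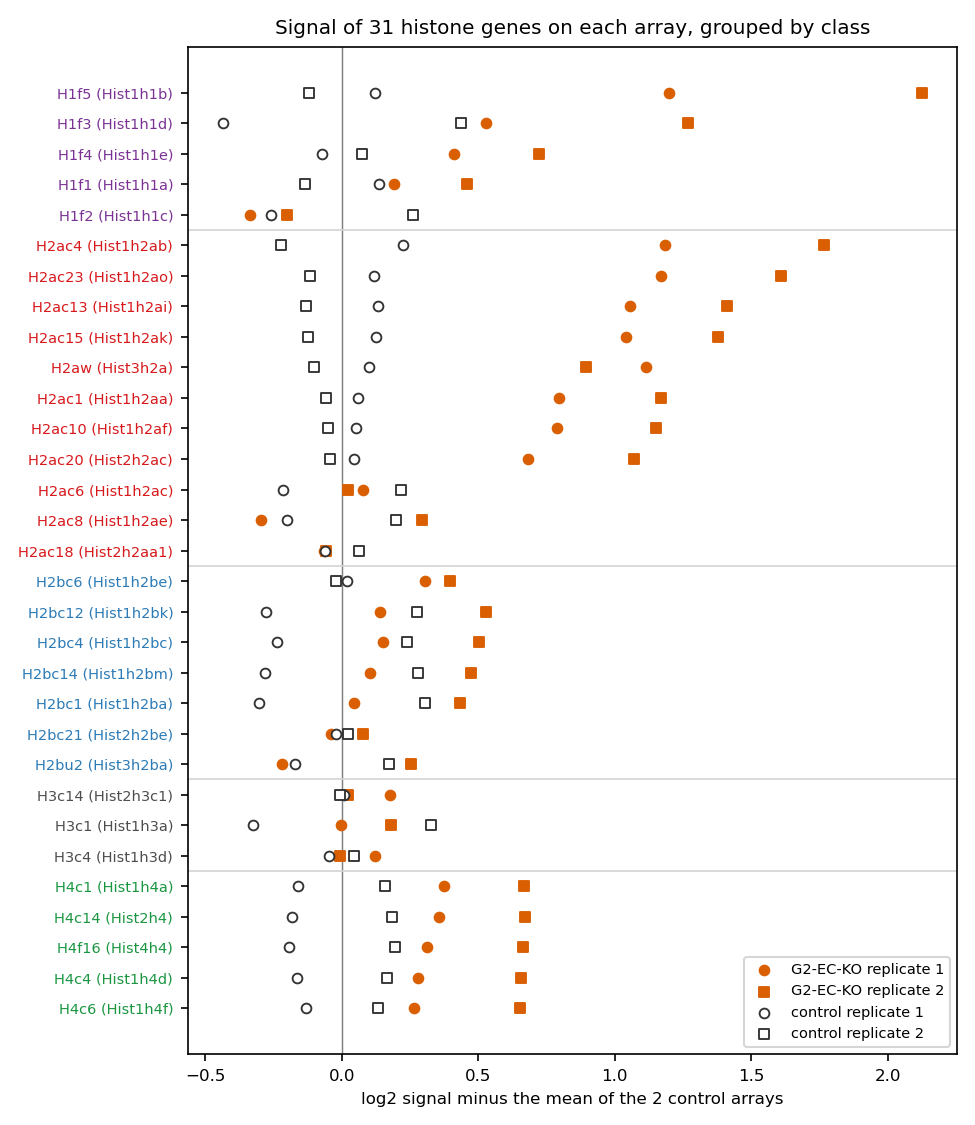
Signal of each of the 31 histone genes tested on every array, as the log2 difference from the mean of both control arrays (x axis), with the genes in rows, grouped by class and named in the colour of the class. Filled symbols are the G2-EC-KO arrays and open symbols the control arrays. The 8 H2A genes with an unadjusted p under 0.05 sit to the right of control on both G2-EC-KO arrays, the H4 genes form 1 repeated pattern, and the G2-EC-KO arrays of the H3 genes stay near 0.

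The promoter windows of the members show how the classes differ in sequence. RefSeq (GRCm38.p6) gave windows of 300 bases, from 250 before to 50 after the annotated start, for 62 member genes, 29 of them with a probe on the array. They are a description of the genes and not of the arrays, whose annotation is on mm9. Capitals mark every exact match, on either strand, to TATAAA (the TATA box), CCAAT, ATTTGCAT (the octamer bound by OCT1) and AAACACA (the H1 box). No 2 different motifs overlap in any member window. The 7 windows below are those of the gene with the smallest p in each class and, in H1 and H2A, also of the gene with the largest p, among tested genes with 1 window in the table.
H1f5, chr13:21780576-21780875, minus strand: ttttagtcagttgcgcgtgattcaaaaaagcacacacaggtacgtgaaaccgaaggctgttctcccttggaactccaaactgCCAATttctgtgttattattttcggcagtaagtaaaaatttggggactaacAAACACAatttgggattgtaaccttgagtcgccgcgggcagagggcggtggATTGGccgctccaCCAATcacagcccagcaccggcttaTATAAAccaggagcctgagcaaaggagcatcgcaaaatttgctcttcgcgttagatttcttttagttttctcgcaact
H1f2, chr13:23738557-23738856, plus strand: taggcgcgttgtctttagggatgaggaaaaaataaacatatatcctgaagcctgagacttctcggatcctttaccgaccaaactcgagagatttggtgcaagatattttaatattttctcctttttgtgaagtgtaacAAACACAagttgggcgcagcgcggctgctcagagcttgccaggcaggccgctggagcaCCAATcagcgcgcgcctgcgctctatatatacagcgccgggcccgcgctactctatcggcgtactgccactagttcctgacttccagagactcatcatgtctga
H2ac23, chr13:21810117-21810416, plus strand: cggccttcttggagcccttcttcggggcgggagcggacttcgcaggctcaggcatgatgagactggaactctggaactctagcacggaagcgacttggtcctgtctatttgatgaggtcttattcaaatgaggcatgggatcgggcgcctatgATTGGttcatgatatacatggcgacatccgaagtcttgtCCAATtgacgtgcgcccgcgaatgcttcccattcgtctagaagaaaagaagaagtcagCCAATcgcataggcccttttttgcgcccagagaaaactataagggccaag
H2ac8, chr13:23571171-23571470, minus strand: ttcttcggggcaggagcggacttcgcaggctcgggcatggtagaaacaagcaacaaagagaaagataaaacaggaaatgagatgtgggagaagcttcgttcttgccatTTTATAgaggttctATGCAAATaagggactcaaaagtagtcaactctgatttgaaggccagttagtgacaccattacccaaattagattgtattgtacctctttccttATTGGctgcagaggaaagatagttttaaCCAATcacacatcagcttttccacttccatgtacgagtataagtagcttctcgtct
H2bc12, chr13:22035571-22035870, plus strand: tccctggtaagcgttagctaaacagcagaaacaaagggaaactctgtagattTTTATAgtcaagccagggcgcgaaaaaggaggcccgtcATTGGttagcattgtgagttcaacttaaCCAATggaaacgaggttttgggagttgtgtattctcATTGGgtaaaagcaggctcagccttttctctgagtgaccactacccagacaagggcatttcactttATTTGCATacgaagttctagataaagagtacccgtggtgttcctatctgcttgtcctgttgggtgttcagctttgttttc
H3c14, chr3:96246435-96246734, plus strand: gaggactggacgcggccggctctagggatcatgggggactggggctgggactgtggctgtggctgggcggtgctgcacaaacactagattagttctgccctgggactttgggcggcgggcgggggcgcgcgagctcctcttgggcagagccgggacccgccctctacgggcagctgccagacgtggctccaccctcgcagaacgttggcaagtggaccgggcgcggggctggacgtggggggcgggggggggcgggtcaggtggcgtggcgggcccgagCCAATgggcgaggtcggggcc
H4c1, chr13:23761200-23761499, minus strand: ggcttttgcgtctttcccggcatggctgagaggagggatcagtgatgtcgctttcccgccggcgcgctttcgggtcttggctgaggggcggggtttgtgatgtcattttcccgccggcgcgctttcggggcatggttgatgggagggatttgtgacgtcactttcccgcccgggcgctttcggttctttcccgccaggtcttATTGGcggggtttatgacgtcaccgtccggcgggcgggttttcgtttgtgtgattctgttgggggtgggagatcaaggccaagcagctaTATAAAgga

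The H1 box was in 5 of 6 H1 windows, against 7.18% of all 32851 windows of that length in the table, and among the sequences printed it stands in both H1f5 and H1f2. The octamer was in 38.9% of 18 H2A and 41.2% of 17 H2B windows, against 1.74% of all windows, and in 0 of the H1, H3 and H4 windows. CCAAT was in every H1, H2A, H2B and H3 window and in 25% of the 12 H4 windows, against 37.4% of all windows. TATAAA was in 55.6% of the 63 member windows, against 13.6% of all. Member windows are not independent, since 10 pairs overlap on the genome, each an H2A gene with an H2B gene. Among H2A genes tested, 4 of the 8 with an unadjusted p under 0.05 hold the octamer, and 2 of the other 3. In the H2ac8 window it lies on the opposite strand. Whether a motif serves the H2A gene or a neighbour was not tested. In H4c1 the TATAAA begins at base 42 after the annotated start, whereas in H1f5 it begins 28 bases before it.

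Of 11 H2A genes tested, 8 had an unadjusted p under 0.05, all higher in G2-EC-KO, against 6.19% of all genes. Their log2 changes lay between 0.88 and 1.47 (limma, adjusted p = 0.387 for each). Their G2-EC-KO arrays lay above both control arrays, against 30.8% of all genes. The 8 were picked by a p from the same arrays, so this adds no support. Whether the H2A probes read shared copies was not tested either, so the 8 may not be independent results. The class median was 0.98 and lay between 0.79 and 1.15 when 1 array was left out.

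H2ac23 (Hist1h2ao), in the chromosome 13 cluster, read 5.26 and 5.70 in G2-EC-KO, against 4.21 and 3.97 in control. Both G2-EC-KO arrays were above both control arrays by more than the replicates of either group differed. Its log2 change was 1.39 (SE 0.19, 95% interval 0.88 to 1.91; limma, adjusted p = 0.387). H2aw (Hist3h2a), the H2A gene of the small chromosome 11 cluster, read 3.56 and 3.34 in G2-EC-KO, against 2.55 and 2.35 in control. By this probe it was the 1 gene of the 8 whose signal was lower on G2-EC-KO replicate 2 than on replicate 1. The signal was 2.01-fold higher, with a 95% interval of 0.63 to 1.38 for the log2 change (SE 0.14, limma, adjusted p = 0.387). A second H2aw probe gave a log2 change of 0.45 (SE 0.19, limma, unadjusted p = 0.064). It ran the other way between replicates, reading 1.46 and 1.93 in G2-EC-KO. H2ac15 (Hist1h2ak) read 2.03 and 2.36 in G2-EC-KO, against 1.11 and 0.86 in control, with a log2 change of 1.21 and an SE of 0.17 (limma, adjusted p = 0.387).

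H2ac10 (Hist1h2af) was measured by 2 probes. The brighter one read 5.32 and 5.68 in G2-EC-KO, against 4.58 and 4.48 in control, a log2 change of 0.97 (SE 0.16). The other gave 1.31 (SE 0.18), so both point the same way. H2ac1 (Hist1h2aa) is known as the testis H2A variant Th2a, and its probe was well above background on all 4 arrays of endothelial RNA. It read 5.26 and 5.64 in G2-EC-KO, against 4.53 and 4.41 in control, with a log2 change of 0.98 and an SE of 0.17 (limma, adjusted p = 0.387). On each of the 4 arrays these values were close to those of the brighter H2ac10 probe. Whether the H2ac1 probe also reads other H2A transcripts was not tested. The remaining genes of the 8 were H2ac4 (Hist1h2ab), with a log2 change of 1.47 (SE 0.26), H2ac13 (Hist1h2ai), with 1.23 (SE 0.18), and H2ac20 (Hist2h2ac), of the chromosome 3 cluster, with 0.88 (SE 0.17). All 8 also shared a direction between the control arrays, where replicate 2 was lower than replicate 1 by 0.090 to 0.45.

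The other 3 H2A genes lay near 0. H2ac18 (Hist2h2aa1), on chromosome 3 near H2ac20, read 1.63 on both G2-EC-KO arrays, against 1.63 and 1.76 in control. Its log2 change was -0.062 (SE 0.11, 95% interval -0.36 to 0.23), and its interval ended below the change of each of the 8, which were picked by their p. H2ac6 (Hist1h2ac) had a log2 change of 0.051 (SE 0.18) and H2ac8 (Hist1h2ae) one of -0.00064 (SE 0.26), and all 3 turned sign under some processing alternatives. The probes of H2ac6 and H2ac8 were well above background on all 4 arrays but dim, with mean signals of -4.88 and -4.36. The means of the 8 lay between 0.64 and 5.01. The lowest signal well above background was between -5.93 and -5.48, depending on the array. In control the probes of H2ac6 and H2ac8 ran opposite to the 8, higher on replicate 2 by 0.43 and 0.40. Human H2AC6 is known to make polyadenylated mRNA in differentiated cells.

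**Figure D2:**
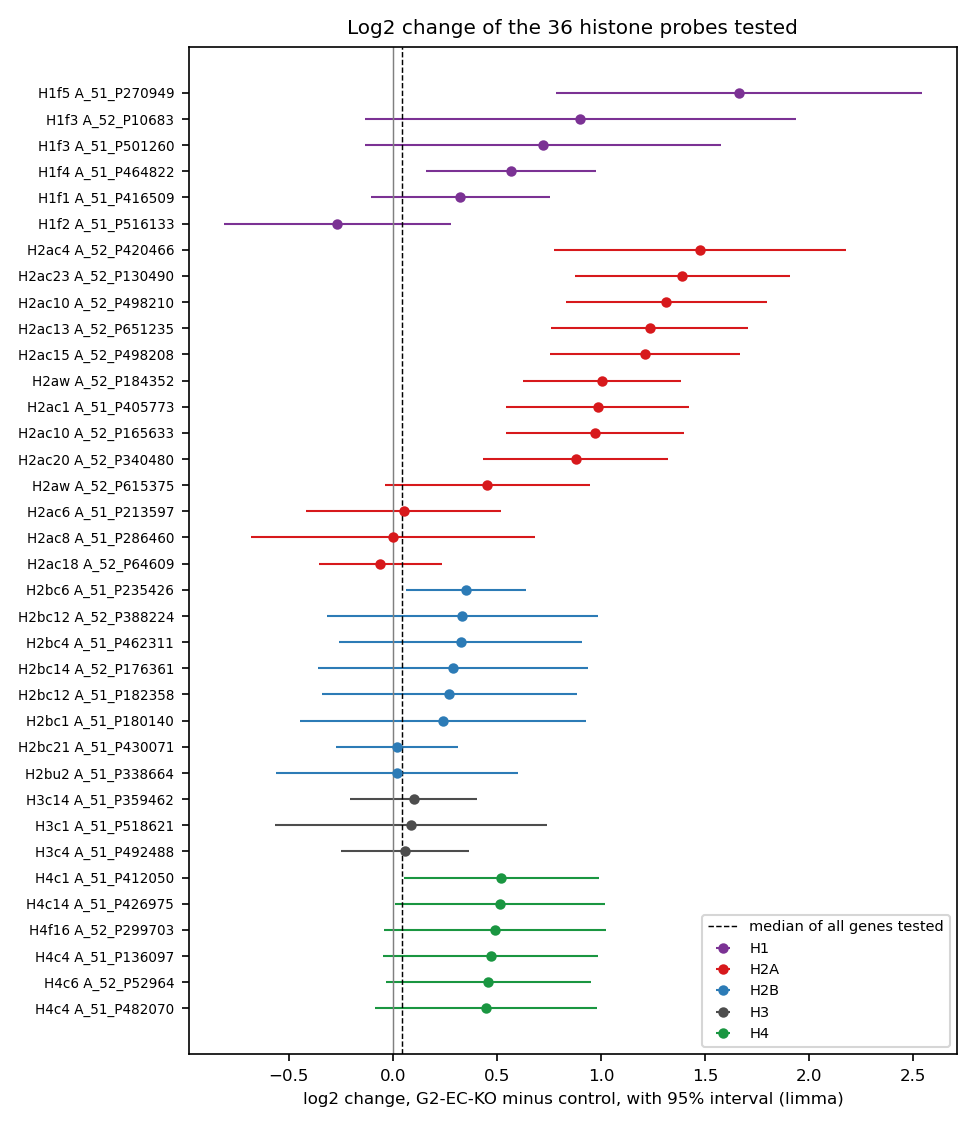
Log2 change, G2-EC-KO minus control, of the 36 histone probes tested (points) with 95% limma intervals (bars), coloured by class, with the median of all genes tested dashed. Of the 13 H2A probes, 9 lie at 0.88 or above, the H4 probes lie within 0.45 to 0.52 and the H3 probes within 0.056 to 0.099.

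Linker histone H1 genes were divided. H1f5 (Hist1h1b), a variant that is made mainly in dividing cells, had the largest log2 change of any member. It read -0.42 and 0.50 in G2-EC-KO, against -1.50 and -1.74 in control, and the groups did not overlap although replicate 2 of G2-EC-KO exceeded replicate 1 by 0.93. The log2 change was 1.66 (SE 0.33, 95% interval 0.78 to 2.54; limma, adjusted p = 0.387). H1f4 (Hist1h1e), a major somatic variant, read 0.14 and 0.45 in G2-EC-KO, against -0.35 and -0.20 in control, again without overlap. Its log2 change was 0.57 (SE 0.15; limma, adjusted p = 0.443).

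H1f3 (Hist1h1d) read -3.36 and -2.62 in G2-EC-KO, against -4.32 and -3.45 in control. The groups did not overlap, but the control arrays differed by 0.87, and the log2 change of 0.90 had an SE of 0.39 (limma, adjusted p = 0.540). It was 0.46 without control replicate 1 and 0.53 without G2-EC-KO replicate 2. A second H1f3 probe cleared background on both G2-EC-KO arrays and on neither control array, with means of -5.21 in G2-EC-KO and -5.93 in control. It too passed the filter only through G2-EC-KO. Its log2 change was 0.72 (SE 0.32; limma, adjusted p = 0.546), with a 95% interval of -0.14 to 1.58, which includes 0. Set against the lowest signals resolved, its G2-EC-KO mean was 1.23-fold higher, which is a point value and not a lower limit. This comparison took, for each control array, the higher of the probe's own signal and the lowest signal well above background on the array. H1f2 (Hist1h1c), a somatic variant that is also expressed in cells that no longer divide, was the H1 gene on the lower side. It read 2.38 and 2.52 in G2-EC-KO, against 2.46 and 2.98 in control, so that the groups overlapped, and its log2 change was -0.27 (SE 0.21, 95% interval -0.81 to 0.28). That value was -0.53 without control replicate 1 and -0.0070 without control replicate 2. H1f1 (Hist1h1a) had a log2 change of 0.32 (SE 0.16), and H1f6 (Hist1h1t), the testis H1, was well above background on 1 of 4 arrays and was not tested. The H1 median was 0.57.

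All 5 H4 genes tested were higher in G2-EC-KO by nearly the same amount, with log2 changes between 0.46 and 0.52. Their G2-EC-KO arrays lay above both control arrays, against 30.8% of all genes. Whether the H4 probes read shared copies was not tested, so these may not be 5 independent results. H4c1 (Hist1h4a) read 2.94 and 3.23 in G2-EC-KO, against 2.40 and 2.72 in control, a log2 change of 0.52 and an SE of 0.18 (limma, adjusted p = 0.507). H4c14 (Hist2h4), which lies on chromosome 3, read 3.56 and 3.87 in G2-EC-KO, against 3.02 and 3.39 in control, a log2 change of 0.51 and an SE of 0.19 (limma, adjusted p = 0.517). On every H4 probe the arrays stood in the same order, with G2-EC-KO replicate 2 the highest, then G2-EC-KO replicate 1, control replicate 2 and control replicate 1. H4c6 (Hist1h4f) read 4.81 and 5.20 in G2-EC-KO, against 4.41 and 4.68 in control (log2 change 0.46, SE 0.19), and the brighter H4c4 (Hist1h4d) probe read 4.15 and 4.52, against 3.70 and 4.03 in control (log2 change 0.47, SE 0.20). H4f16 (Hist4h4), the single member on chromosome 6, had a log2 change of 0.49 (SE 0.20). The step between groups was not much larger than the step between replicates: replicate 2 exceeded replicate 1 by 0.30 to 0.39 in G2-EC-KO and by 0.27 to 0.39 in control. The H4 median of 0.49 became 0.31 without G2-EC-KO replicate 2.

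In H2B the replicates differed by more than the groups did. The class median was a log2 change of 0.29 over 7 genes, whereas control replicate 2 exceeded control replicate 1 by a median of 0.46 over 8 probes. Without control replicate 1 the median was 0.0081, without control replicate 2 it was 0.54, and without G2-EC-KO replicate 2 it was 0.10. H2bc4 (Hist1h2bc), whose human counterpart can make polyadenylated mRNA, read 3.35 and 3.70 in G2-EC-KO, against 2.96 and 3.44 in control (log2 change 0.33, SE 0.22, limma, adjusted p = 0.613). H2bc12 (Hist1h2bk) read 3.17 and 3.55 in G2-EC-KO, against 2.75 and 3.30 in control, and its 2 probes gave log2 changes of 0.33 and 0.27. H2bc14 (Hist1h2bm) read 3.24 and 3.61 in G2-EC-KO, against 2.85 and 3.41 in control. For these genes the groups overlapped, since control replicate 2 was above G2-EC-KO replicate 1. With 1 array left out the log2 changes lay between 0.089 and 0.56 for H2bc4, 0.058 and 0.61 for H2bc12 and 0.0081 and 0.57 for H2bc14.

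H2bc6 (Hist1h2be) cleared background on both G2-EC-KO arrays and on neither control array. It was thus tested only through the G2-EC-KO arrays, which favours a higher value there. The log2 change of H2bc6 was 0.35 (SE 0.11, 95% interval 0.061 to 0.64; limma, adjusted p = 0.479). It was 0.24 with normexp background correction and 0.26 with the deposited value table. Set against the lowest signals resolved, the G2-EC-KO mean was 1.22-fold higher, which is a point value and not a lower limit. The H2bc6 signals were -5.31 and -5.22 in G2-EC-KO, against -5.60 and -5.64 in control, close to the lowest signal the arrays resolve. With probes well above background on all 4 arrays the H2B median was 0.26. H2bc1 (Hist1h2ba), the testis variant Th2b, had a log2 change of 0.24 (SE 0.26). H2bc21 (Hist2h2be) and H2bu2 (Hist3h2ba) had log2 changes of 0.020 (SE 0.11) and 0.018 (SE 0.22). The sign of H2bc1, H2bc21 and H2bu2 turned when control replicate 1 was left out. That of H2bc21 and H2bu2 also turned without G2-EC-KO replicate 2, and that of H2bu2 with normexp background correction and with the deposited value table. H2bc23 (Hist1h2bq) was well above background on 0 of 4 arrays and was not tested.

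**Figure D3:**
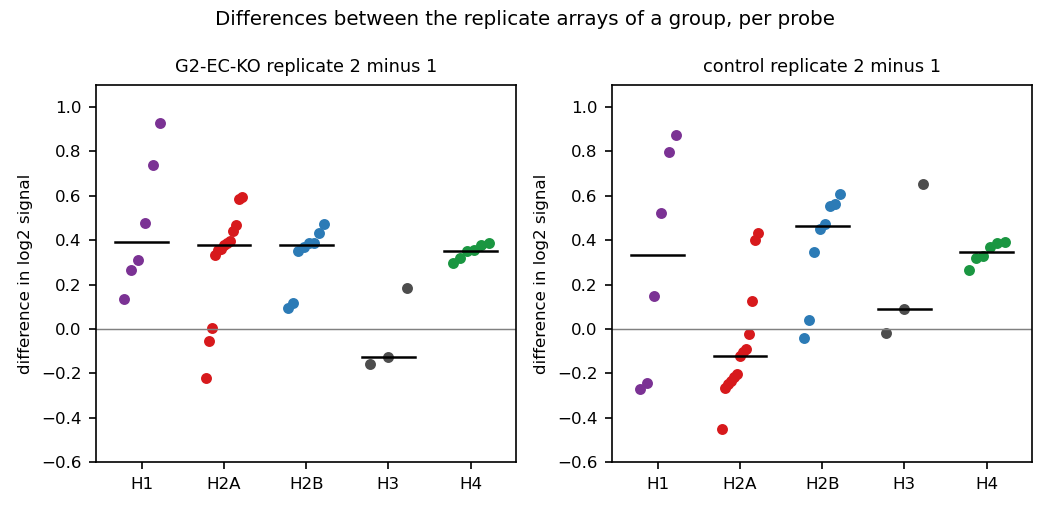
Difference in log2 signal between the replicate arrays of a group (y axis) for each of the 36 histone probes tested, by class (x axis), in G2-EC-KO (left) and control (right), with class medians as bars. The H2B and H4 probes lie mostly between 0.3 and 0.6 in both groups, while most H2A probes are above 0 in G2-EC-KO and below 0 in control.

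None of the 3 H3 genes tested reached an unadjusted p of 0.05. H3c14 (Hist2h3c1) read 6.61 and 6.45 in G2-EC-KO, against 6.44 and 6.42 in control, with a log2 change of 0.099 (SE 0.12, 95% interval -0.21 to 0.41). Its G2-EC-KO arrays were both above control, by a margin smaller than the distance between them, and the other H3 genes overlapped. H3c4 (Hist1h3d) read 6.06 and 5.93 in G2-EC-KO, against 5.90 and 5.99 in control (log2 change 0.056, SE 0.12). H3c1 (Hist1h3a) read -4.02 and -3.83 in G2-EC-KO, against -4.34 and -3.69 in control (log2 change 0.088, SE 0.25). The median of 0.088 became 0.011 without control replicate 1 and 0.021 without G2-EC-KO replicate 1. No test between classes was made.

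Members that lie side by side in the genome were tested together in 6 pairs. H2ac1 and H2bc1, whose promoter windows overlap, had log2 changes of 0.98 and 0.24. H2ac20 and H2bc21 had 0.88 and 0.020, while H2ac6 and H2bc4 had 0.051 and 0.33. H4c1 had 0.52 beside H3c1 with 0.088, H1f1 next to H3c1 had 0.32, and H2ac18 and H3c14 had -0.062 and 0.099. The differences within pairs were not tested.

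Replacement histones, which are made outside S phase as well and have poly(A) tails, were compared as a separate list. Of 12 genes tested, 3 were higher at an unadjusted p under 0.05, against 6.19% of all genes, and 0 lower, against 2%, with a median log2 change of 0.26. The H2A variant gene H2aj read 5.15 and 5.45 in G2-EC-KO, against 4.54 and 4.52 in control, a log2 change of 0.77 (SE 0.14), while its second probe gave 0.30. Cenpa, the H3 variant of centromeres, had a log2 change of 0.99 (SE 0.23), H2az1, which encodes H2A.Z, one of 0.34 (SE 0.10), and H2az2 one of 0.34 (SE 0.13). H3f3b, a gene of the replacement histone H3.3, had 0.053 (SE 0.11), and its further probes gave 0.092 and 0.16. None of these passed after adjustment (limma, lowest adjusted p = 0.387).

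Of 21 genes of histone pre-mRNA processing tested, 2 were higher at an unadjusted p under 0.05, against 6.19% of all genes, which is near that background, and 0 were lower, against 2%, with a median of 0.12. Eri1, an exonuclease that trims the end of histone mRNA, had the largest log2 change at 0.53 (SE 0.13), and Lsm11, a subunit of the U7 particle that cuts the pre-mRNA, had 0.30 (SE 0.11). Further Eri1 probes gave 0.28 and 0.37. Slbp, the stem-loop binding protein gene, had 0.15 (SE 0.11), Cstf1 0.23 (SE 0.11) and Snrpb 0.14 (SE 0.10). Tut7, whose product adds uridines to histone mRNA, had -0.49 (SE 0.24), with -0.23 from a second probe. Of 18 histone chaperone genes, 3 were higher at that p, against 6.19% of all genes, and 0 lower, against 2%, with a median of 0.11. These 3 were the chromatin assembly factor 1 subunits, Chaf1a at 0.88 (SE 0.25) and Chaf1b at 0.66 (SE 0.11), and Asf1b, an H3-H4 chaperone of dividing cells, at 1.48 (SE 0.30). Its paralogue Asf1a had 0.26 (SE 0.11), Nap1l4 0.18 (SE 0.12) and Daxx -0.10 (SE 0.24). The second Asf1a probe gave -0.037, and further Nap1l4 probes gave -0.035 to 0.010. No gene of either list passed after adjustment (limma, lowest adjusted p = 0.387).

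Of 18 regulators of histone transcription, 5 were higher at an unadjusted p under 0.05, against 6.19% of all genes, and 0 lower, against 2%, with a median of 0.095. Ccne1 and Ccne2, the cyclin E genes upstream of NPAT, had log2 changes of 0.56 (SE 0.12) and 1.05 (SE 0.18), and the S phase transcription factor genes E2f1 and E2f2 had 0.90 (SE 0.15) and 1.30 (SE 0.24). Hinfp, the other gene higher at that p, had 0.45 (SE 0.13), and its second probe gave 0.38. Npat itself had 0.018 (SE 0.12), and its second probe gave 0.044. Gapdh and Ldha, listed as parts of the OCA-S coactivator of H2B promoters, had 0.034 (SE 0.12) and 0.021 (SE 0.12), and a second Ldha probe gave -0.020. Second probes gave 0.37 for Ccne1, 0.95 for Ccne2, 0.78 for E2f1 and 0.12 for Gapdh. In the list of S phase genes of DNA replication 19 of 31 were higher at that p and 0 lower, against the same 6.19% and 2%, with a median of 0.61. Pole had 1.41 (SE 0.14), Cdc45 1.19 (SE 0.15), Gins1 0.97 (SE 0.12), Mcm10 1.06 (SE 0.16) and Mcm6 0.62 (SE 0.13), while Pcna had -0.061 (SE 0.13). A second Gins1 probe gave 0.82. In the list of mitosis genes 17 of 19 were higher at that p and 0 lower, against the same shares, with a median of 1.55. The summed mitosis signal was 21.9 and 38.1 in G2-EC-KO, against 11.6 and 9.60 in control, as multiples of the 75th percentile of the array. Its part in the histone values was not tested. No gene of these lists passed after adjustment (limma, lowest adjusted p = 0.387).

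**Figure D4:**
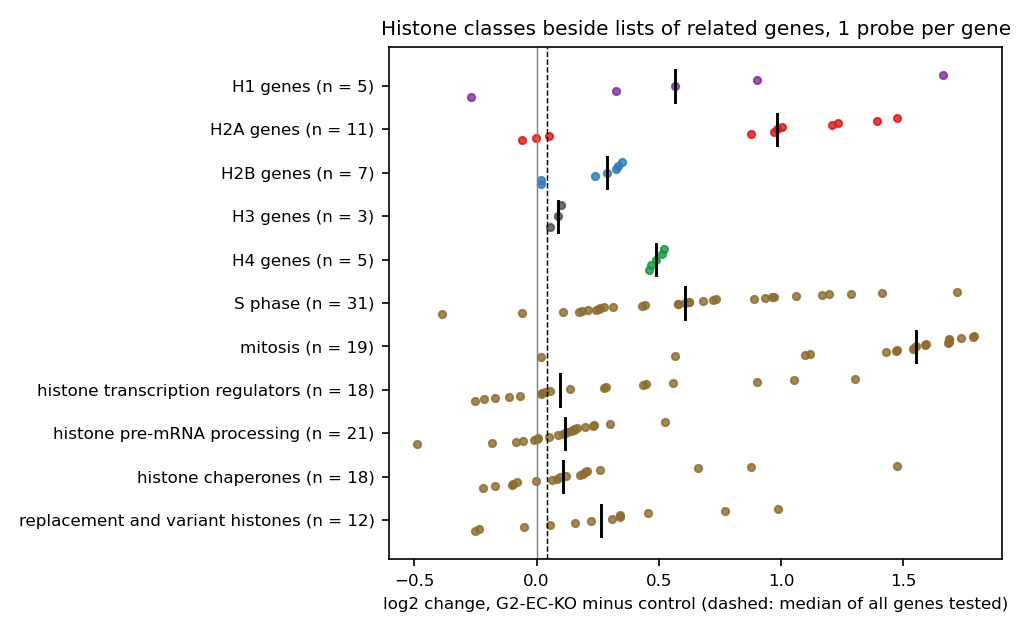
Log2 change, G2-EC-KO minus control, of each gene (points) in the histone classes and in 6 lists of related genes, with 1 probe per gene, black bars at each median and the median of all genes tested dashed. The H2A median of 0.98 and the mitosis median of 1.55 stand to the right of the S phase median of 0.61, and the H3 median of 0.088 lies near that of all genes.

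Markers of the labelled cell type were well above background for 7 of 7 endothelial genes, and their summed signal was 325 and 319 in G2-EC-KO, against 309 and 334 in control. Markers of other cells were also present, and at an unadjusted p under 0.05 2 of 6 macrophage and 2 of 6 fibroblast genes were higher, against 6.19% of all genes. The macrophage gene Ccr2, 1 of these, passed the filter only through the G2-EC-KO arrays. Summed signals were 86.1 and 113 in G2-EC-KO, against 81.1 and 80.4 in control, for 7 cardiomyocyte genes, 7.47 and 6.20, against 5.19 and 6.87, for 6 macrophage and monocyte genes, and 161 and 178, against 140 and 166, for 6 fibroblast genes. They were 0.270 and 0.253, against 0.370 and 0.196, for 4 lymphocyte genes, 234 and 170, against 225 and 206, for 5 pericyte and smooth muscle genes, and 148 and 78.0, against 85.9 and 74.4, for 2 erythroid genes. For 4 lymphatic endothelial genes they were 2.19 and 2.29, against 2.02 and 2.68. Cd3g was not well above background on enough arrays to be tested. In bulk RNA, more cells of a type and more RNA per cell cannot be told apart. Of 7 Y-linked probes well above background on any array, 7 were so on control replicate 2 and 1 on each other array. The control arrays lay at positions 1 and 2 of the slide and the G2-EC-KO arrays at 3 and 4, so that position and group cannot be told apart. The part of these differences in the histone values was not tested.

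**Figure D5:**
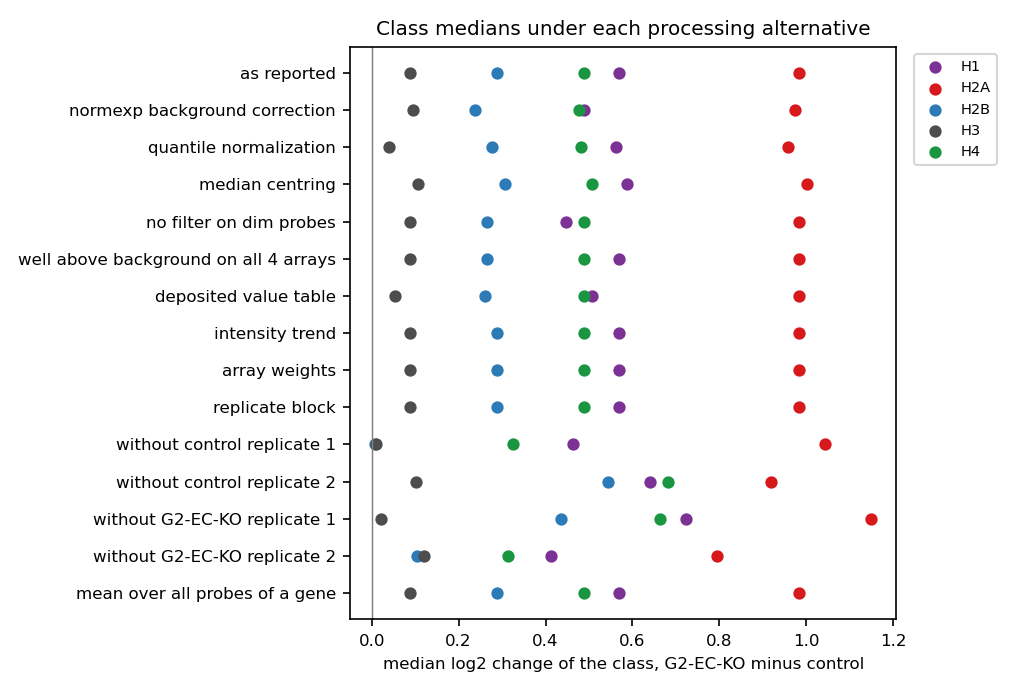
Median log2 change of each histone class, G2-EC-KO minus control (x axis), as reported and under each processing alternative (rows), coloured by class. The H2A median stays between 0.79 and 1.15 in every row, and the H2B median is 0.0081 without control replicate 1 and 0.54 without control replicate 2.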

How the data were processed

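The files hold intensity values of 4 arrays, which the authors deposited as Agilent Feature Extraction 10.7.3.1 output, per the file headers. The submitters' processing notes name version 10.5. The headers give array design 014868, annotated on mm9, on 1 slide in 1 scan. The deposited processed signal is Feature Extraction's own background-corrected value and still differs in level among arrays. The median processed signal was 133 and 123 in G2-EC-KO and 151 and 149 in control, and between 63.8% and 66.5% of probes were well above background, which with 2 arrays per group limits the precision. The deposited value table equals the median spot signal minus local background plus 16, a linear, uncentred scale with median 149 and 138.5 in G2-EC-KO, against 169 and 166 in control. It served as an alternative.

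Control spots and 87 to 101 outlier spots per array were left out. The log2 processed signal was set relative to the 75th percentile of the array, and replicate spots were averaged. Tested were probes well above background on at least 2 of 4 arrays. Symbols came from RefSeq (GRCm38.p6) by accession, for 26933 of 41174 probes. The probe with the highest mean stood for a gene. The comparison used limma 3.58.1 under R 4.3.3 (lmFit, eBayes, two-sided, Benjamini-Hochberg over 26893 probes), with 2 residual and 2.58 prior degrees of freedom. An exact permutation test of 2 against 2 cannot go below p = 0.333. The fit was run on simulated data in which probes varied independently, so that run says nothing about probes that share copies.

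The members and lists were chosen with earlier results of these data known. The text gives per-array values for the 3 genes with the smallest p and the 2 brightest of each class, and accounts for the rest by value or count. In each related list it names the 4 genes with the smallest p and the 2 brightest, for mitosis and cell type markers only counts and sums. H2ac18 and H2aj were given per array, the H2ac8 promoter was printed, and Npat and Hinfp were named, after values were seen. Alternatives were normexp, on the median spot signal in place of the mean, which the files do not hold; quantile normalization; median centring; no filter and a filter on all 4 arrays; the value table; an intensity trend; array weights; the replicate block; each array left out; and the mean over the probes of a gene.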

Additional observations from a re-analysis of the deposited data

How the results depend on the processing

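Across the alternatives that give a p the number of member genes past an adjusted p of 0.05 (limma) remained 0, and the number higher at an unadjusted p under 0.05 was between 9 and 18, against 13 as reported. The number lower at that p was 0 as reported and became 1 with no filter on dim probes, where H2bc23 joined, and lay between 0 and 1 when 1 array was left out, with H1f2 counted without control replicate 1. The median over all members lay between 0.28 and 0.65 when 1 array was left out. Class medians then lay between 0.41 and 0.72 for H1, 0.79 and 1.15 for H2A, 0.0081 and 0.54 for H2B, 0.011 and 0.12 for H3, and 0.31 and 0.68 for H4. The cause of these movements was not tested. The fits with each array left out assume that the lone array of a group varies like the other group.

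A changed filter, the intensity trend, array weights and the replicate block left the log2 change of each named member tested exactly as reported. Values under those alternatives could not turn sign, so their agreement says nothing about stability, although they are counted in the total that follows. Of 259 values of named members under alternatives, 3 turned sign, all of them when 1 array was left out. These were H3c1, at -0.24 without control replicate 1 and -0.0042 without G2-EC-KO replicate 2, with a range from -0.24 to 0.41 when 1 array was left out, and H3c4, at -0.0077 without G2-EC-KO replicate 1, with a range up to 0.12. Over all 31 genes, 23 kept their sign under each alternative run and 8 did not. With the replicate number as a block, 16 members were higher at an unadjusted p under 0.05 and 0 passed after adjustment. In that setting 2691 of 26893 probes had such a p in either direction. Replicate 1 minus 2 differences correlated between the groups by 0.044 over the tested probes, and the labels do not say that the numbers pair samples. Scaling moved the median of all genes from 0.043 to between 0.032 and 0.062. The mean over the probes of a gene gave no p. Signals of H2bc6, H2bc23 and H1f6 near background limit what can be said of them, and those of H2ac6 and H2ac8 were also dim.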
